A study of Mus musculus with 3 samples.

Results

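The 10 genes described here encode 2 FOXO transcription factors, Foxo1 and Foxo3a, and 8 genes known to respond to insulin, glucose or nutrient withdrawal: Ccng2, Txnip, Arrdc4, Fbxo32, Irs2, Insr, Hbp1 and Tsc22d3. Every probe whose gene name in the scanner files equals one of these names was taken, which gave 16 of 41125 probes and 9 of 28451 genes. No probe carried the name Irs2, and this gene, which encodes an adaptor of the insulin receptor, was not analysed here. The cells were J774A.1, an established mouse macrophage-like line, kept for 6 h in 1 of 3 media. EBSS with SB202190 was Earle's balanced salt solution with 10 µM of an inhibitor of the p38 kinases, EBSS was the same salt solution without the inhibitor, and RPMI was complete medium with 10% fetal bovine serum. EBSS supplies glucose and salts but neither amino acids nor serum. The series' design text can also be read as RPMI in all 3 media; the source names of the samples were followed. Whether EBSS alone contained the vehicle is not stated in the labels.

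FOXO factors are held out of the nucleus when insulin or growth factors activate AKT, and they enter it and switch on target genes when that signal falls. Their known targets include cell cycle brakes such as Ccng2, the ubiquitin ligase gene Fbxo32, and Insr and Irs2, which feed back on the insulin signal itself. Txnip and Arrdc4 encode related arrestin-domain proteins that limit glucose uptake, and both are known targets of the glucose-sensing factor MondoA.

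RNA of the 3 media was hybridised on 3 two-colour Agilent arrays of 1 slide, arranged as a loop. Array 1 held EBSS (Cy3) and RPMI (Cy5), array 2 EBSS with SB202190 (Cy3) and EBSS (Cy5), and array 3 EBSS with SB202190 (Cy5) and RPMI (Cy3). Each medium was read once in each dye. The labels do not say whether both channels of a medium came from 1 RNA extract, so each medium was treated as 1 sample, with no test between media and no p-value. A ratio is the log2 difference between 2 media, by least squares over the loop. Its error (±) is a technical SE taken from how far the ratios of probes of like intensity fail to sum to 0 around the loop, and if both channels came from 1 extract it holds no spread between cultures. A gene counts as higher or lower below if it met 3 conditions. The size of its ratio was 1 or more. The direct array, which carried both media, and the indirect path through the remaining arrays agreed in sign, each with a size of 0.5 or more. The scanner software found its probe well above background on both arrays of one or the other medium. Levels are log2 intensities after normalization and can be compared between media for 1 probe, but not between probes. The share of spots above background ranged from 40.1% to 49.9% over the channels, and no spot was saturated. All 13 macrophage markers on the array were well above background in all 6 channels, against 1 of 19 markers of other cell types (Hba-a1). In RNA from whole cultures, fewer cells that express a gene and less RNA per cell cannot be told apart.

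In EBSS against RPMI, 5 of the 7 measured genes were counted as higher (Hbp1, Ccng2, Txnip, Tsc22d3 and Fbxo32) and 0 as lower, with a median log2 ratio of 1.67. Of all 12111 measured genes, the same rule found 4.46% higher and 2.79% lower, and the median was 0.0022. The members were chosen with earlier results of these data known, so this contrast is a description and not a test. In EBSS with SB202190 against EBSS, 0 of the 7 genes were higher by this rule and 2 lower (Hbp1 and Fbxo32), with a median of 0.02. The background there was 0.89% higher and 2.89% lower among 11916 genes. In EBSS with SB202190 against RPMI, 4 of the 7 genes were higher (Tsc22d3, Txnip, Ccng2 and Hbp1) and 0 lower, with a median of 1.41, against 1.46% higher and 2.4% lower among 12094 genes. The 3 comparisons share their media, and the last ratio is the sum of the other 2, so they are not independent of each other. Foxo3a and Insr were not well above background and are not among the 7.

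**Figure D1:**
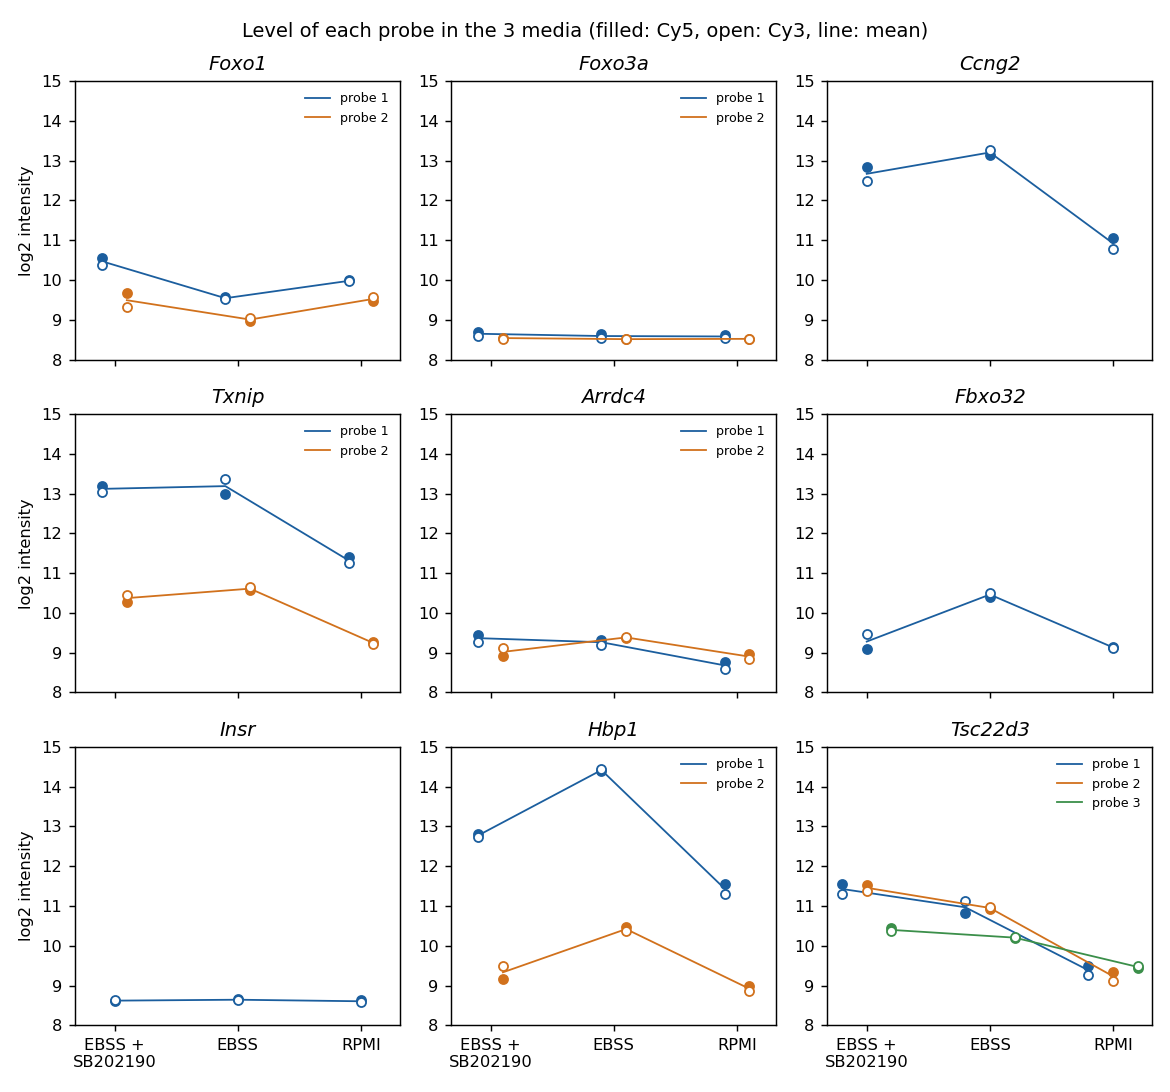
Level of each probe in EBSS with SB202190, EBSS and RPMI (horizontal axis) as log2 intensity (vertical axis); filled points are the Cy5 channel, open points the Cy3 channel, and the line joins the means of both. The brightest Hbp1 probe reaches 14.39 and 14.44 in EBSS, Tsc22d3 is highest in EBSS with SB202190 with all 3 probes after the loess normalization used, and Foxo3a and Insr lie flat near the bottom.

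Promoter sequences are shown for the 3 genes whose levels in EBSS exceeded RPMI most (Hbp1, Ccng2 and Txnip) and for Arrdc4, the relative of Txnip. Each runs from 250 bases before to 50 bases after the transcription start, on the gene's own strand, from RefSeq's table for GRCm38.p6. That table held 8 of the 10 genes by symbol (Foxo3a as Foxo3); Insr and Fbxo32 were not matched in it. Capitals mark 3 motifs, searched on both strands: GTAAACA, the FOXO core; a pair of CACGNG with 5 bases between, the layout of a carbohydrate response element that MondoA is known to bind; and CCAAT, which reads ATTGG on the other strand. The motifs were chosen with these sequences in view, and no 2 matches overlapped.
Txnip, chr3:96557707-96558006, plus strand: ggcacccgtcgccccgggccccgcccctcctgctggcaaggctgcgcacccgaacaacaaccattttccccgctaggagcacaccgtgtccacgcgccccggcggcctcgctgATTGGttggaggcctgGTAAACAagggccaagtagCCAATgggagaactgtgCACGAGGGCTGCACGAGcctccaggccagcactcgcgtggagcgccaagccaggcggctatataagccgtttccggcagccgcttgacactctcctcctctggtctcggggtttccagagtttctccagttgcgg
Hbp1, chr12:31950196-31950495, minus strand: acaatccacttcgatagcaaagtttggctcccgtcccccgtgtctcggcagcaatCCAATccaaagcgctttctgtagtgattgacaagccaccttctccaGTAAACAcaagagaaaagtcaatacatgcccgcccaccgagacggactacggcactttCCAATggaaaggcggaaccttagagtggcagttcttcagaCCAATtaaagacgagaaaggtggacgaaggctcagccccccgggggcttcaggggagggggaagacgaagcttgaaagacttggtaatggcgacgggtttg
Arrdc4, chr7:68749189-68749488, minus strand: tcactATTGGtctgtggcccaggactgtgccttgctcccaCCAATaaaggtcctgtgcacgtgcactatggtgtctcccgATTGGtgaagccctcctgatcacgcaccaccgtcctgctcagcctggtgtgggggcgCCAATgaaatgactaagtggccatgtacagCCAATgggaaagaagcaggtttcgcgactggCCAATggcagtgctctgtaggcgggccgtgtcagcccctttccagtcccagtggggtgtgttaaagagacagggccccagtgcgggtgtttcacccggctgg
Ccng2, chr5:93267323-93267622, plus strand: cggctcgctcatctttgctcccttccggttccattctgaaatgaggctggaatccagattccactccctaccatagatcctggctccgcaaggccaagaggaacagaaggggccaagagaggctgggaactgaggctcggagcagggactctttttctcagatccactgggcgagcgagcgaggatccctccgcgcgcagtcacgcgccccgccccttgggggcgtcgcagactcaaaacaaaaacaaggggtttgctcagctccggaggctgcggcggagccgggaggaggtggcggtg
Among the 8 genes, Txnip and Hbp1 held GTAAACA, at bases -121 and -149 from the start, as did 3.65% of all 32851 promoters in the table. The CACGNG pair stood at base -85 of Txnip and in 16 promoters of the table (0.049%). Arrdc4 held 6 CCAAT matches, Hbp1 3 and Txnip 2; 37.4% of all promoters held at least 1, 11.7% at least 2 and 1.06% at least 4. The Foxo1 window held 3 CCAAT matches, at bases -162, -55 and -23, and the Irs2 window 2. Of these 3 motifs, none was present in the windows of Ccng2 and Foxo3a or at any of the 3 start sites of Tsc22d3. A match in these letters is a description and was not tested for binding.

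Of the FOXO factors, Foxo1 was highest in EBSS with SB202190, and it was lowest in EBSS after loess but in RPMI after median centring. Its brighter probe (chr3:52434190-52434249; probe coordinates are those of the scanner files, on mm8, and exon position was not analysed here) had levels of 10.55 in Cy5 and 10.39 in Cy3 in EBSS with SB202190, 9.57 and 9.52 in EBSS, and 9.99 and 9.97 in RPMI. No channel of one medium overlapped another. The log2 ratio was -0.39 ± 0.11 for EBSS against RPMI, 0.90 ± 0.11 for EBSS with SB202190 against EBSS, and 0.50 ± 0.11 between the inhibitor medium and RPMI. None of these reached the size required, although 0.90 ranked 164 from the highest of 11916 genes. The scanner software's own log ratios were -0.91, 1.64 and 0.73 in the same order, so that Foxo1 was counted as higher in EBSS with SB202190 than in EBSS when that ratio was used. With arrays centred on their median in place of loess, Foxo1 came to 0.36 for EBSS against RPMI while the median of all genes moved to 0.80.

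The second Foxo1 probe (chr3:52437296-52437355) was dimmer and gave the same order of EBSS below RPMI after loess. Its levels were 9.66 and 9.32 in EBSS with SB202190, 8.98 and 9.03 in EBSS, and 9.48 and 9.57 in RPMI. The channels of EBSS with SB202190 overlapped those of RPMI and stayed above those of EBSS. The ratios were -0.38 for EBSS against RPMI, 0.41 for EBSS with SB202190 against EBSS and 0.03 for the inhibitor medium against RPMI. After loess both probes placed EBSS lowest, and they differed in whether the inhibitor brought the level above that in RPMI. After median centring the probes, brighter first, gave 0.36 and 0.13 for EBSS against RPMI, where the median of all genes was 0.80. For the inhibitor medium against RPMI they then gave 0.86 and 0.39, where that median was 0.33.

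Foxo3a, a second FOXO factor, was not well above background. Only its brighter probe (chr10:41874361-41874420) was detected, on 1 of the 2 arrays of EBSS with SB202190. All levels of both its probes (the other at chr10:41869156-41869215) lay between 8.51 and 8.69, and the channels of the brighter probe overlapped in every pair of media. Those of the other probe, undetected in every channel, did not overlap, though mean levels differed by only 0.0196 (EBSS with SB202190 above RPMI) and 0.0068 (RPMI above EBSS). Channels without overlap therefore do not by themselves show a difference between media. Insr, the insulin receptor gene, was not well above background in any channel with its 1 probe (chr8:3159473-3159532), and its levels lay between 8.58 and 8.66. At this signal a difference between media was not detectable for either gene.

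Hbp1, a repressor of cell cycle genes and of WNT signalling, ranked 8 from the highest of 12111 genes in EBSS against RPMI. Its brighter probe (chr12:32511769-32511828) had levels of 12.81 and 12.75 in EBSS with SB202190, 14.39 and 14.44 in EBSS, and 11.56 and 11.31 in RPMI. EBSS was highest, EBSS with SB202190 lay between, and no channels overlapped. The log2 ratio was 2.97 ± 0.13 for EBSS against RPMI, a 7.82-fold higher level. With SB202190 the level was 2.95-fold lower than in EBSS, at -1.56 ± 0.13, and still above RPMI, at 1.41 ± 0.13.

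The dimmer Hbp1 probe (chr12:32514709-32514768) had levels of 9.17 and 9.496 in EBSS with SB202190, 10.47 and 10.37 in EBSS, and 8.99 and 8.86 in RPMI. It kept the order of the brighter one, again with no overlap. Its ratios were smaller, at 1.35 for EBSS against RPMI, -1.01 for EBSS with SB202190 against EBSS and 0.34 for the inhibitor medium against RPMI. In the scanner software's log ratios the probes, brighter first, gave 3.11 and 3.38 for EBSS against RPMI, closer together than above. For EBSS with SB202190 against EBSS that software gave -1.63 and -2.46, farther apart than above and with the dimmer probe the larger in size. The files name different transcripts for the 2 probes.

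Ccng2 encodes cyclin G2, an unusual cyclin that holds cells out of the cycle. Its probe (chr5:94351052-94351111) had levels of 12.84 and 12.49 in EBSS with SB202190, 13.14 and 13.27 in EBSS, and 11.05 and 10.79 in RPMI. Both EBSS media lay well above RPMI, and the channels of the 3 media did not overlap. The ratio of 2.38 ± 0.12 for EBSS against RPMI was a 5.19-fold higher level and ranked 31 of 12111. Against EBSS, the inhibitor gave -0.49 ± 0.12, which was not counted. The array with both media gave -0.65 and the path through the other 2 gave -0.16. With equal spread between arrays this ratio was -0.99. After median centring it was -1.26, while the median of all genes moved to -0.45. Against RPMI, EBSS with SB202190 stood at 1.89 ± 0.12, rank 27 of 12094.

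Fbxo32 encodes atrogin-1, a ubiquitin ligase subunit best known from muscle wasting. The probe (chr15:58010280-58010339) had levels of 9.09 and 9.47 in EBSS with SB202190, 10.41 and 10.51 in EBSS, and 9.16 and 9.11 in RPMI. EBSS alone was high, and the channels of EBSS with SB202190 overlapped those of RPMI. The ratio was 1.21 ± 0.11 for EBSS against RPMI and -1.08 ± 0.11 for EBSS with SB202190 against EBSS, which left 0.13 ± 0.11 for EBSS with SB202190 against RPMI. Each of the first 2 values was near the size required. In the array with both media the inhibitor gave -0.94, and along the other path EBSS against RPMI gave 0.92, both just short of it. The scanner software's log ratios were larger, at 2.42 and -2.44, with -0.03 for EBSS with SB202190 against RPMI.

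Txnip encodes a thioredoxin-binding arrestin-domain protein that restrains glucose uptake. Its brighter probe (chr3:96646629-96646688) had levels of 13.19 and 13.04 in EBSS with SB202190, 13.00 and 13.38 in EBSS, and 11.40 and 11.25 in RPMI. The channels of the first 2 media overlapped, and both media lay above RPMI. The ratio was 1.95 ± 0.13 for EBSS against RPMI, a 3.87-fold higher level, and 1.97 ± 0.13 for the inhibitor medium against RPMI. The difference made by the inhibitor was 0.02 ± 0.13 with this probe. After median centring it was -0.76, while the median of all genes moved to -0.45.

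The dimmer Txnip probe (chr3:96644567-96644741) was also higher in both EBSS media than in RPMI, at a smaller size. Its levels were 10.29 and 10.46 in EBSS with SB202190, 10.57 and 10.65 in EBSS, and 9.27 and 9.23 in RPMI. Here the channels of EBSS with SB202190 stayed just below those of EBSS. The ratios were 1.31, -0.18 and 1.13 for EBSS against RPMI, for the inhibitor against EBSS and for the inhibitor against RPMI. In the scanner software's log ratios both probes gave 2.07 and 2.13 for EBSS against RPMI.

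Arrdc4, the arrestin-domain relative of Txnip, was dim, and its size depended on the background correction. Its brighter probe (chr7:68610532-68610591) had levels of 9.46 and 9.28 in EBSS with SB202190, 9.33 and 9.20 in EBSS, and 8.76 and 8.60 in RPMI. The EBSS media overlapped, and both lay above RPMI, where the probe was not well above background on either array. By the mean levels of this probe, EBSS was 1.497-fold and EBSS with SB202190 1.61-fold above RPMI. These folds concern the weak RPMI signal of this probe alone, not the gene, and are not lower bounds. They hold no technical error, and single paths of the loop gave log2 ratios as low as 0.43 and 0.38. They set the mean of the brighter medium against, per array, the higher of the lowest signal well above background and the probe's own. The probe's own RPMI signal was the one used. The fitted ratios of 0.59 ± 0.10 and 0.70 ± 0.10 were not counted. With the scanner software's log ratios they were 3.74 and 4.19, and Arrdc4 was then counted as higher in both; in 1 of the 2 RPMI channels that software had replaced the signal by a surrogate from the background's error.

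The second Arrdc4 probe (chr7:68618401-68618675), close in mean intensity to the first, differed in what it showed for the inhibitor. Its levels were 8.92 and 9.12 in EBSS with SB202190, 9.38 and 9.39 in EBSS, and 8.96 and 8.85 in RPMI. EBSS alone was high, and EBSS with SB202190 overlapped RPMI. All 6 channels of this probe were well above background, and its log2 ratios to RPMI, 0.40 for EBSS and 0.11 for EBSS with SB202190, were below those of the first probe. For the inhibitor against EBSS, this probe gave -0.29 and the first 0.11, or -1.26 and 0.45 in the scanner software's log ratios. The direction of Arrdc4 under SB202190 was therefore not settled by these arrays.

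Tsc22d3 encodes GILZ, a leucine zipper protein known as a target of glucocorticoids and of FOXO factors. Its brightest probe (chrX:135886218-135886277) had levels of 11.54 and 11.31 in EBSS with SB202190, 10.82 and 11.12 in EBSS, and 9.502 and 9.27 in RPMI. EBSS with SB202190 was highest, RPMI lowest, and no channels overlapped. The ratio was 1.67 ± 0.11 for EBSS against RPMI, a 3.19-fold higher level, and 2.22 ± 0.11 for EBSS with SB202190 against RPMI, rank 15 of 12094. The inhibitor added 0.55 ± 0.11 over EBSS, which was not counted. After median centring this last value was -0.06, while the median of all genes moved to -0.45.

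The other Tsc22d3 probes kept the same order with no overlap between media. The probe at chrX:135886092-135886152 gave 1.74 for EBSS against RPMI, 0.57 for EBSS with SB202190 against EBSS and 2.31 for the inhibitor medium against RPMI. The third, at chrX:135886776-135886835, gave 0.77, 0.17 and 0.94 and was not counted. In the scanner software's log ratios the 3 probes gave 2.32, 2.58 and 1.08 for EBSS against RPMI, so the third was the lowest in both.

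**Figure D2:**
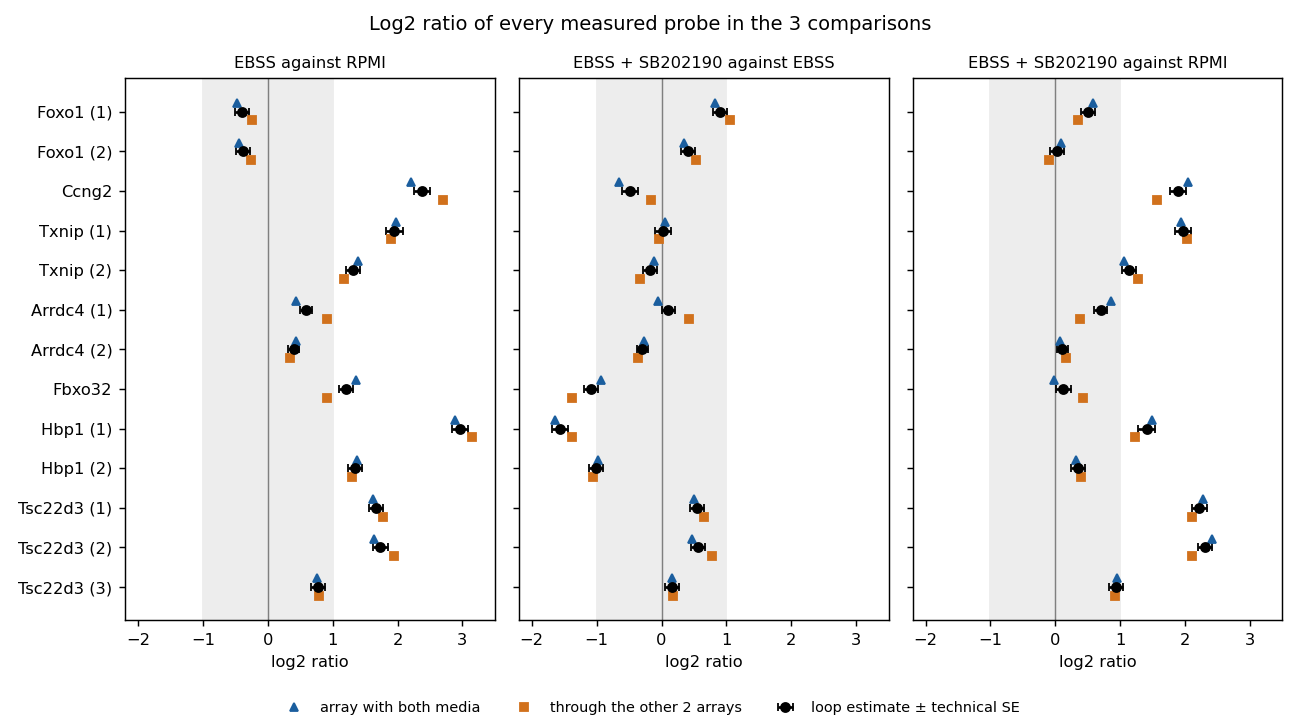
Log2 ratio (horizontal axis) of the 13 measured probes in each comparison; circles with bars are the loop estimate ± technical SE, triangles the array that held both media, squares the path through the other 2 arrays, and the grey band marks ratios below 1 in size. In EBSS against RPMI, 8 of 13 probes are counted as higher. In EBSS with SB202190 against EBSS, the 3 probes of Hbp1 and Fbxo32 are counted as lower. Some genes have several probes, and the share over all probes was not taken.

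By probe, 8 of 13 were counted as higher in EBSS against RPMI and 3 as lower in EBSS with SB202190 against EBSS. In EBSS with SB202190 against RPMI, 6 were counted as higher. Probes of 1 gene are not independent of each other, and the share over all probes was not taken. By gene, the shares over all measured genes were 4.46%, 2.89% and 1.46% in the same order. Among the 5 genes that were higher in EBSS, the inhibitor's ratio ranged from -1.56 for Hbp1 to 0.55 for Tsc22d3. Fbxo32 was the only one of these 5 whose channels in EBSS with SB202190 overlapped those in RPMI. The ranks of the inhibitor's ratio among 11916 genes were 702 for Tsc22d3, 5521 for Txnip, 10551 for Ccng2, 11647 for Fbxo32 and 11844 for Hbp1.

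**Figure D3:**
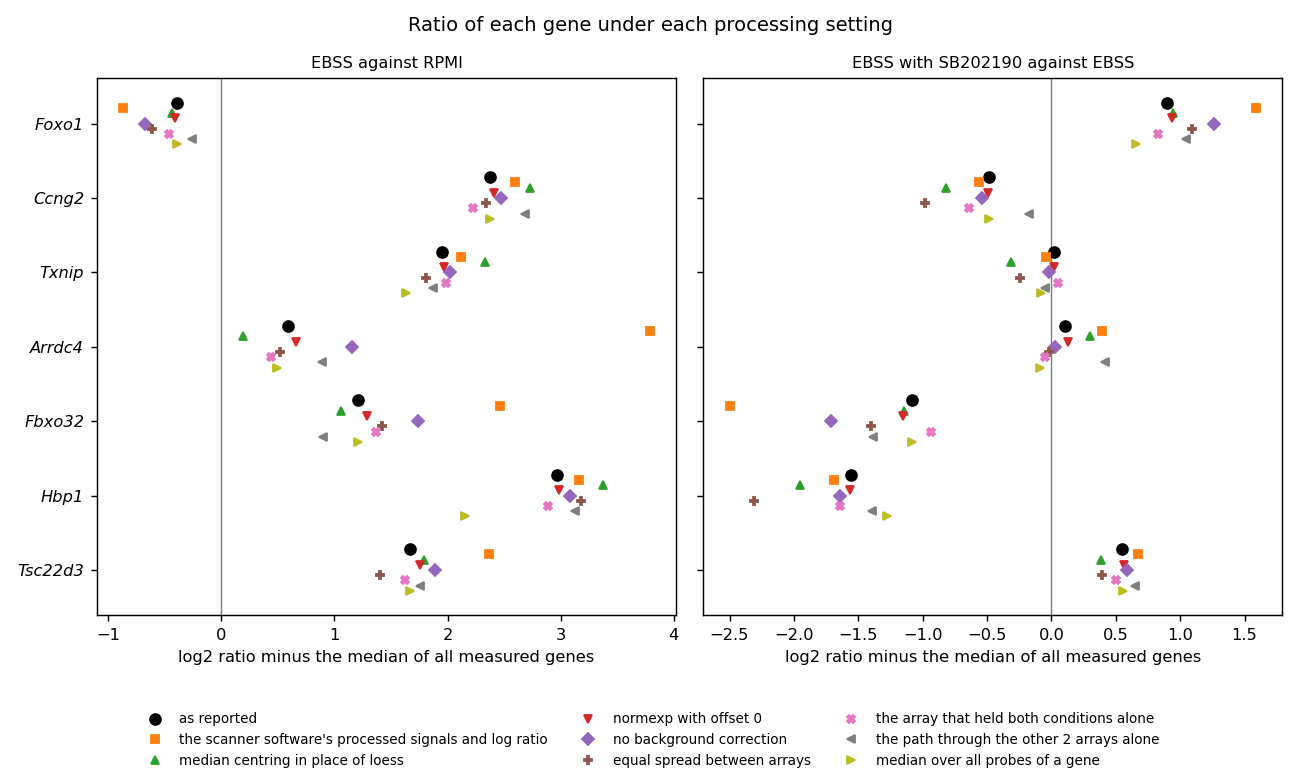
Log2 ratio of each measured gene minus the median of all measured genes (horizontal axis) under the reported processing (black) and 8 other settings, for EBSS against RPMI (left) and EBSS with SB202190 against EBSS (right). With the scanner software's log ratio Arrdc4 and Fbxo32 lie farthest from their reported values on the left, and Hbp1, Ccng2, Txnip, Tsc22d3 and Fbxo32 stay above 0 on the left in each setting drawn.

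Nearness between genes was the Euclidean distance over 2 log2 ratios, EBSS against RPMI and EBSS with SB202190 against EBSS. Of 10958 genes well above background in all 6 channels, those without a RefSeq symbol or with Gm, LOC or Rik names were left out. The genes nearest to each counted member were found over the 9338 other genes that remained. For Hbp1 these were Tcp11l2 (2.70 and -1.52, distance 0.27) and Nupr1 (2.72 and -1.36, distance 0.32). For Ccng2 they were Fam13b (2.23 and -0.35) and Tmem140 (2.36 and -0.69), both at 0.20. Those of Fbxo32 were Ip6k2 (1.25 and -1.10) and Mtbp (1.16 and -1.10), both at 0.05. Those of Txnip were Siah2 (1.77 and -0.14, distance 0.24) and H2bc4 (2.07 and -0.20, distance 0.25). For Tsc22d3 the nearest were Slc1a4 (1.4999 and 0.53, distance 0.17) and Gadd45b (1.83 and 0.65, distance 0.18). Hbp1 had the widest gap to its nearest gene and Fbxo32 the narrowest. The likeness rests on 1 sample for each medium.

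Counts in the lists around these genes are read against all measured genes, of which 4.46% were higher and 2.79% lower in EBSS than in RPMI. The lists were also chosen with earlier results of these data known, so the counts describe and do not test. In the insulin, PI3K and AKT pathway, 2 of 28 measured entries were higher in EBSS than in RPMI and 1 was lower, with a median of 0.07. The gene Mtor is among the 28 both as Mtor and as Frap1, its name in the scanner files, and neither entry was higher or lower. The higher ones were Rheb (1.03), an activator of mTOR, and Tsc1 (1.02), a brake on it, whose other probes gave 0.17 and 0.09; the lower one was Inpp5d (-1.70), a lipid phosphatase of blood cells. With SB202190 against EBSS, 1 of the 28 was lower and 0 higher. Both counts are near those shares, or near 0.89% higher and 2.89% lower for the inhibitor. Of 27 modifiers and partners of FOXO factors, 2 were higher in EBSS and 0 lower, with a median of 0.14: the kinase gene Dyrk1a (1.46, other probe 0.24) and the acetyltransferase gene Crebbp (1.21, other probe 0.05). The deacetylase gene Sirt1 stood at 0.97 (other probe 1.02), just short of the size required with the probe that stood for it. Foxo6 was the only other FOXO family gene measured, at -0.09 for EBSS against RPMI and 0.23 for EBSS with SB202190 against EBSS.

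Of 36 other genes known as FOXO targets, 7 were higher and 4 lower in EBSS than in RPMI, with a median of 0.11, against 4.46% higher and 2.79% lower over all genes. The largest were the pro-apoptotic Bbc3 (3.07), cyclin D1 gene Ccnd1 (-3.03) and the stress gene Gadd45a (2.94). With SB202190 against EBSS, 5 of the 36 were lower and 0 higher, with a median of -0.21, against 2.89% lower and 0.89% higher over all genes. As in Hbp1 and Fbxo32, a higher level in EBSS and a lower one with SB202190 were counted together in Bbc3, Il7r, Gabarapl1 and Klf6. Bbc3 stood at -1.23 with the inhibitor. The cytokine receptor gene Il7r had 2.29 and -2.25 (other probe 0.80 and -0.66). The autophagy gene Gabarapl1 had 1.92 and -1.36 (other probe 1.22 and -0.87), and Klf6 had 1.35 and -1.16 (other probe 1.28 and -1.28). The list holds genes known to be activated and genes known to be repressed by FOXO factors, and it was chosen with earlier results of these data known.

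Lists around single members were counted without those members. Among 14 other MondoA, thioredoxin and arrestin-domain genes, 1 was higher in EBSS than in RPMI (Hk2, a hexokinase, 1.32) and 1 lower (Hk1, a second hexokinase, -1.04, other probes -0.35 to -0.51), with a median of -0.13. Hk1 came to 0.22 after median centring, while the median of all genes moved to 0.80. None of 5 other muscle atrophy ligases was counted in EBSS against RPMI, with Fbxo31 at -0.94 and Fbxo21 at -0.85 (other probe -0.16). After median centring these came to 0.18 and 0.16 for the probes that stood for the genes, both still below the median of all genes at 0.80. Fbxo31 was counted as higher with SB202190 against EBSS (1.85), opposite in sign to Fbxo32. Of 13 other TSC22 and glucocorticoid-responsive genes, 4 were higher and 1 lower in EBSS. The leading ones were Klf9 (1.79), the mTOR inhibitor gene Ddit4 (1.76) and the phosphatase gene Dusp1 (1.69). With SB202190 against EBSS, 1 of 12 was higher and 4 were lower, against 0.89% and 2.89% of all genes. Klf9, Ddit4 and Dusp1 stood at -1.49, -1.22 and -2.93. Tsc22d3, at 0.55 or at -0.06 after median centring, was not alone above 0. Mt2, a metallothionein gene, stood at 1.26, or at 0.32 after median centring. Fkbp5, a chaperone partner of the glucocorticoid receptor, stood at 0.85 (other probes 0.50 and 0.08), or at 0.48 after median centring. The median of all genes moved to -0.45 in that setting. These last 2 genes were named after their values were seen. Of 12 other cyclin G and HBP1 partners, 0 were higher in EBSS and 1 lower (Tcf7l2, -1.12).

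**Figure D4:**
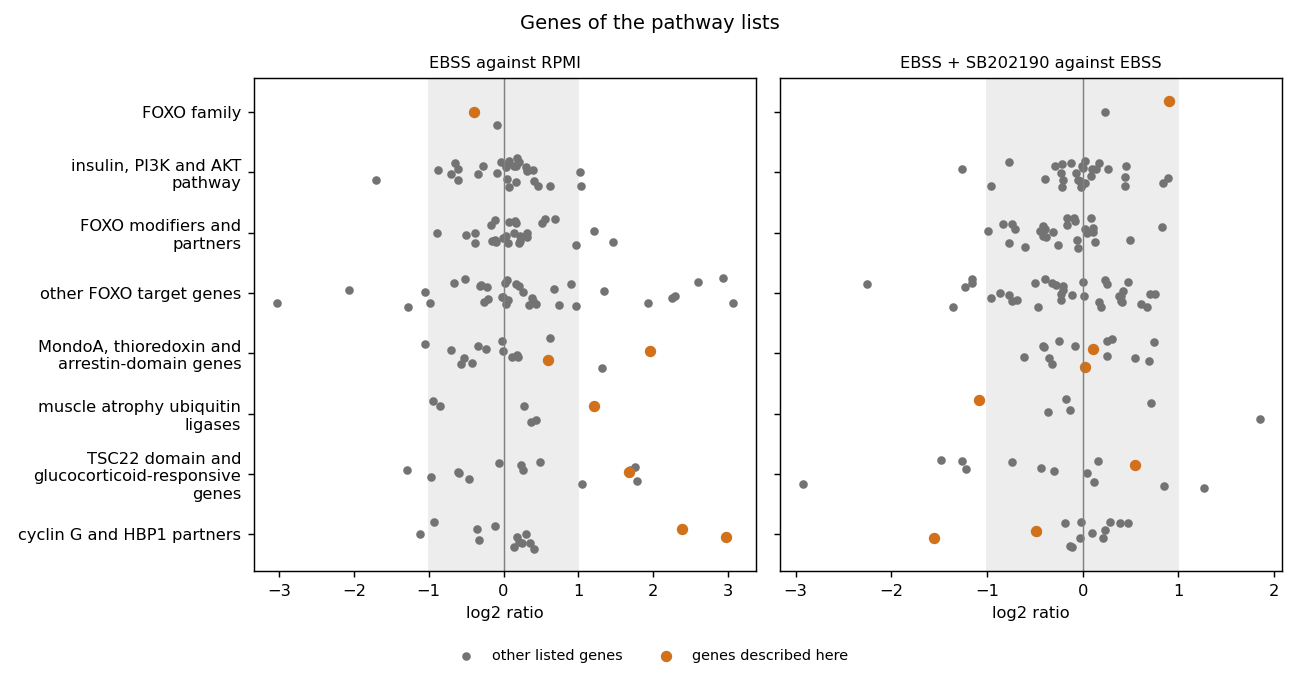
Log2 ratio (horizontal axis) of the measured genes of each pathway list (rows), for EBSS against RPMI (left) and EBSS with SB202190 against EBSS (right); orange points are the genes described here, grey points other listed genes, and the grey band marks ratios below 1 in size. On the left Hbp1 (2.97) and Ccng2 (2.38) lie to the right of the other cyclin G and HBP1 partners, and on the right Hbp1 (-1.56) and Fbxo32 (-1.08) lie to the left of the grey band.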

How the data were processed

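The submitters' processing notes name Agilent Feature Extraction 9.5.3.1 as the software that read the spots. Per the file headers, the deposited scanner files hold the mean intensity and local background intensity of each spot in both dyes, and the software's log10 ratio of its processed signals. The authors' deposited series table holds a log2 ratio per probe, with medians of -0.0854, -0.0766 and -0.166 on the 3 arrays. Its direction followed Cy5 over Cy3. For the measured members it held the same ratios as the scanner software, so its equal member counts are not a separate check. From the mean intensities, normexp (offset 50) and loess within arrays were run in limma 3.58.1 (R 4.3.3), with 1639 control spots at weight 0 and outlier spots (136 to 178 an array) left out. Ratios were fitted over the loop, and levels taken after Aquantile. The technical SE came from 30 bins of intensity and had a median of 0.109. The brightest probe stood for a gene. Promoters were searched in Python 3.11.15. Of each list, the 3 measured genes largest in EBSS against RPMI and those counted in both that comparison and EBSS with SB202190 against EBSS were to be named. The members and lists were chosen with earlier results of these data known. Only the loop fit, the rule for higher and lower and the technical SE were tested on simulated data. The simulation drew ratios directly, with every probe taken as well above background, so the normalization and the background filter were not tested. The number of arrays limits the precision. Alternatives were the scanner software's ratio, the authors' table, median centring, equal spread between arrays, other background corrections, single paths of the loop, the median over probes, no filter on dim probes and a lower threshold.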

Additional observations from a re-analysis of the deposited data

How the results depend on the processing

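In EBSS against RPMI, the count of higher genes was 5 of 7 as reported and lay between 4 and 6 over the alternatives, with 0 lower in each. In EBSS with SB202190 against EBSS, 1 gene (Foxo1) in place of 0 was counted as higher under several alternatives. These included the scanner software's log ratio and the authors' table, which held the same ratios for the measured members. The others were no background correction, equal spread between arrays, the path through the other 2 arrays alone and the 1.5-fold threshold. With the array that held both media alone, 1 in place of 2 was counted as lower (without Fbxo32, -0.94). In EBSS with SB202190 against RPMI, 3 to 5 genes were higher and 0 lower. Among all genes, the higher share of those counted in EBSS against RPMI was 61.5% as reported, 46.9% with the scanner software's ratio (987 higher, 1116 lower, against 540 and 338) and 99.5% with median centring (4300 and 23), which moved the median gene by 0.80 there, by -0.45 for EBSS with SB202190 against EBSS and by 0.33 for EBSS with SB202190 against RPMI. For EBSS with SB202190 against EBSS the higher share was 23.6% as reported, close to even with the scanner software's ratio (796 higher, 795 lower) and 2.4% with median centring, and the higher and lower genes, 106 and 344 as reported, ranged from 19 to 796 and from 265 to 1047. For EBSS with SB202190 against RPMI it was 37.9%, and 63.3% with median centring, and the 177 and 290 genes ranged from 87 to 639 and from 90 to 883. Relative to all genes, Hbp1 in EBSS against RPMI ranged from 2.16 to 3.37, Ccng2 from 2.22 to 2.73, Txnip from 1.63 to 2.33, Tsc22d3 from 1.40 to 2.37, Fbxo32 from 0.89 to 2.46 and Arrdc4 from 0.19 to 3.79. The cause of these shifts was not tested. No paired analysis was possible because each medium is 1 sample.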
